A study of Mus musculus with 3 samples.

Results

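The miR-23/27/24 clusters comprised 5 mature microRNAs (miRNAs) in these data, the 3p arms of miR-23a (MIMAT0000532), miR-23b (MIMAT0000125), miR-27a (MIMAT0000537), miR-27b (MIMAT0000126) and miR-24 (MIMAT0000219). They were chosen by their miRBase identifiers and not by their values, although earlier results of these data were known. All 5 were found among the 602 miRNAs of the panel. Müller glia (MG) carrying the tdTomato reporter were sorted from adult mouse retinas, and mature miRNAs were measured with the NanoString nCounter, in which tagged molecules are counted with no amplification step. There were 3 samples with 1 sample per condition. The wild type sample pooled 40 undamaged retinas of Rlbp1-CreER:tdTomato mice. The light damage (LD) sample pooled 44 retinas of Rlbp1-CreER:tdTomato mice crossed to albino Swiss Webster mice with the leucine variant of RPE65, taken 7 days after 8 h of light at 10000 lux. The Dicer-cKO sample pooled 26 retinas of Rlbp1-CreER:tdTomato:Dicerf/f mice, 1 month after deletion of Dicer. All mice received tamoxifen at 75 mg/kg, on 3 days by the sample labels and on 4 days by the study's methods, which give an age of 2 to 3 months at that time. Cre was driven by the promoter of Rlbp1, a gene of MG and of the retinal pigment epithelium, so that deletion was limited to cells in which Cre was active. The wild type and Dicer-cKO samples came from an earlier publication of the same authors and were normalized anew with the LD sample, so that for LD the light damage cannot be told apart from the strain or from the separate measurement. Since each condition is 1 pool, no replicate spread and no test are available. Whether the sorted cells carried the miRNAs known from MG was not checked, because no source used here pairs the other identifiers of the panel with names. In pooled sorted cells, fewer cells of a type and less RNA per cell cannot be told apart.

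miR-23, miR-27 and miR-24 are transcribed together as polycistronic precursors from a pair of paralogous loci, and Drosha and then Dicer cut each precursor into the separate mature miRNAs. A mature miRNA finds its target messages mainly through its seed, the bases from 2 to 8 counted from the 5′ end. miR-23 and miR-27 are known for promoting the growth of blood vessels, including those of the retina and choroid, miR-27 also for controlling genes of lipid metabolism, and miR-24 for repressing genes of the cell cycle and of apoptosis.

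In the RefSeq annotation of assembly GRCm38.p6 the hairpins Mir23a, Mir27a and Mir24-2 lie in this order on the plus strand of chromosome 8, within 404 bases. Mir23b, Mir27b and Mir24-1 lie in the same order on the plus strand of chromosome 13, within 792 bases and inside the span of the protein-coding gene Aopep. miR-24 is the product of both loci and carries no mark of its origin, whereas miR-23 and miR-27 differ between the loci. Mir3074-2 and Mir3074-1 are annotated over the 2 miR-24 hairpins. The mature sequences of 4 of the 5 members were in the RefSeq table, and they are shown because they set which members share a seed and how far a tag must tell the members apart. The capitals mark the seed.
miR-23a, chr8:84208563-84208583, plus strand: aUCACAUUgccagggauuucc
miR-27a, chr8:84208727-84208747, plus strand: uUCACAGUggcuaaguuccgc
miR-27b, chr13:63300760-63300780, plus strand: uUCACAGUggcuaaguucugc
miR-24, chr8:84208875-84208896 and chr13:63301251-63301272, plus strand: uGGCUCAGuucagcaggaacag
miR-27a and miR-27b had the same seed and differed at 1 of 21 bases, C19U (miR-27a first, counted from the 5′ end). The seeds of miR-23a and miR-27a differed at 1 of 7 bases, U7G, whereas the seed of miR-24 differed from both at 7 of 7 bases. Among the 1679 mature names in the table, 2 held the seed UCACAGU, miR-27a and miR-27b. How well the assay separated miR-27a from miR-27b, or miR-23a from miR-23b, was not tested.

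The values are counts of molecules that the authors had corrected for background and scaled to 4 housekeeping mRNAs (normalized counts). The factors behind this scaling, worked out from the step size of the values, were 1.155 for wild type, 2.035 for LD and 4.420 for Dicer-cKO. Before scaling, the miRNA counts summed to 678474, 229844 and 44022, so that the precision was lowest in the Dicer-cKO sample. The brackets below give exact 95% Clopper-Pearson intervals, which cover counting error only. They treat the counts left after background subtraction as the counts observed. The error of the background and that of the scaling factors are not included, so that the intervals may be too narrow.

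In wild type MG miR-23a had 3327 normalized counts, rank 23 of the 602 miRNAs. miR-27a had 1046 (rank 40) and miR-23b 565 (rank 54). The miR-23a and miR-27a products of chromosome 8 thus had more counts than their chromosome 13 paralogs. miR-24, which both loci produce, had 96 normalized counts, and miR-27b had 24. These 2 members were far below the others, although each locus encodes all 3 families. How efficiently each miRNA was tagged is unknown, so that the order of the members within a sample may differ from that of the molecules in the cells, and the comparisons between samples below do not rest on it.

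The level of 2 members was too low for most comparisons. The 8 lowest ERCC control rows were taken as the negative controls of the assay by their level and number, since the table does not mark which rows these are. They reached 23.4 counts before scaling in wild type, 31.5 after LD and 38.6 in Dicer-cKO, all set by the same row, and the next highest row had 18.4 in wild type, 5.50 after LD and the lowest value of the control rows in Dicer-cKO. miR-27b had 20.8, 9.34 and 1.58 counts before scaling, in each sample between the highest row and the next. miR-24 had 83.1 counts in wild type, above every one of these rows, and 18.7 after LD, between the highest and the next, while in Dicer-cKO it was at the lowest value of the sample. Only miR-23a, miR-23b and miR-27a were above the highest row in all 3 samples, and only these 3 had a mean of at least 100 normalized counts, the minimum used below for counts of miRNAs past a fold.

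**Figure D1:**
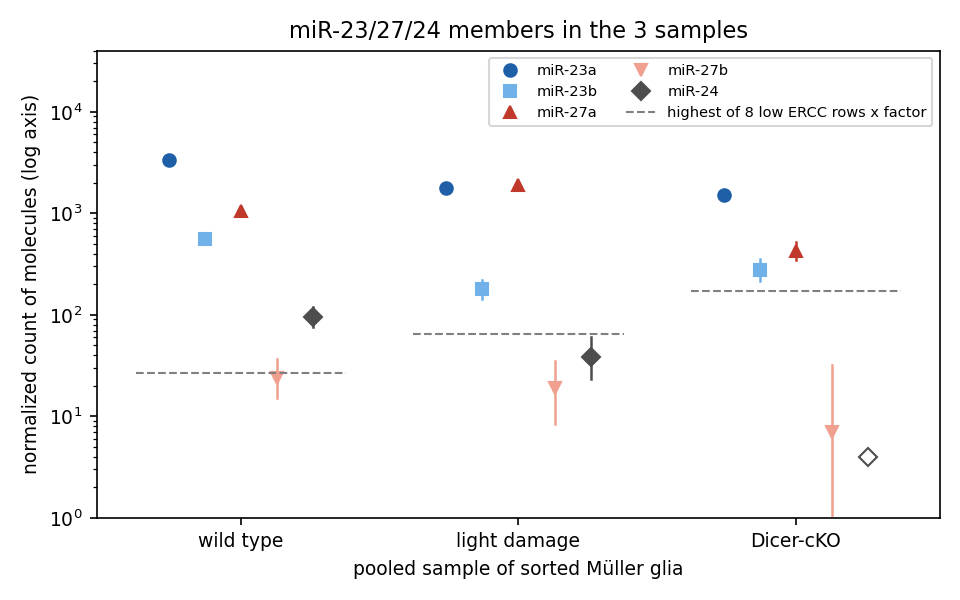
Normalized counts of the 5 members (log axis) in the 3 pooled samples of sorted MG, with bars for the 95% Poisson counting interval; the open symbol is a value at the lowest of its sample, and the dashed lines give the highest of the 8 low ERCC rows multiplied by the scaling factor of the sample. miR-27a is above miR-23a only after LD (1886 against 1796), while miR-23b, miR-27b and miR-24 are below both in every sample.

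After LD the members did not move together. miR-23a had 1796 normalized counts, below the 3327 of wild type, a decline of 46.0% (41.8 to 50.0). miR-23b had 178 compared with 565, a decline of 68.5% (60.5 to 75.3). In the authors' scaling both miR-23 paralogs were lower by more than counting error, miR-23b more so than miR-23a. Under 2 of the 10 other scalings described below miR-23a was instead higher than in wild type. By contrast, miR-27a had 1886 normalized counts, above the 1046 of wild type, a ratio of 1.80 (1.64 to 1.98). The most abundant product next to miR-23a on chromosome 8 was therefore higher after LD in the authors' scaling, at rank 26 of the 602 miRNAs compared with rank 40, while miR-23a was at rank 27 compared with rank 23. miR-24 had 38 normalized counts compared with 96, from a level above the highest of the low control rows to a level below it, so that no fold is given. miR-27b had 19 compared with 24, neither of them above the highest of the low control rows, so that no fold is given for it either.

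The unscaled counts of miR-27a were 927 after LD and 906 in wild type MG, a ratio of 1.02, so that its higher normalized value came with the larger scaling factor of the LD sample (1.76 times that of wild type). The same factor applied to every miRNA. For the 104 miRNAs whose mean was 100 or more, the median log2 ratio of LD to wild type (pseudocount 1) was -0.70, and 73 of the 104 were lower. Relative to this median, miR-27a was higher by 1.55 on the log2 scale, whereas miR-23a was at -0.18 and miR-23b at -0.96. Over a fixed set of miRNAs, another scaling shifts each ratio and the median alike, apart from the pseudocount, but the 104 were set by the authors' normalized counts, and the median over another set was not computed. In the order of the ratio from the highest, miR-27a was at 20, miR-23a at 55 and miR-23b at 81 of the 104. miR-23b was the only member of the 3 that was lower by at least 2-fold, which 39.4% of the 104 were. None of the 3 was higher by at least 2-fold, which 18.3% were.

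In Dicer-cKO MG the 3 members were lower to a like extent. miR-23a had 1515 normalized counts, a decline of 54.5% (49.0 to 59.4) from wild type. The decline of miR-23b, to 277, was 51.0% (35.8 to 62.7). For miR-27a, with 423 normalized counts, it was 59.6% (49.9 to 67.5). The intervals of the 3 declines overlapped, and in the authors' scaling each decline was larger than counting error, the only error these intervals cover. All 3 members were instead higher than in wild type under 3 of the 10 other scalings described below. All 3 members were lower by at least 2-fold, as were 60.6% of the 104 miRNAs, and 0 were higher by at least 2-fold compared with 19.2% of the 104. The median log2 ratio of the 104 was -1.36, with 79 of them lower than in wild type, and relative to it miR-23a was at 0.23, miR-23b at 0.34 and miR-27a at 0.06. Their declines were therefore close to that of the panel as a whole, at places 48, 42 and 51 of the 104 in the order of the ratio from the highest. miR-24 was at the lowest value of the sample. The wild type value of 96 was 7.24 times the value of 3 counts in the Dicer-cKO sample, 13.26, which leaves out the counting error of wild type. The highest of the low control rows would come to 171 at the scaling of the Dicer-cKO sample, above the wild type value, so that no bound of the fold is given. Under the 10 other scalings the 7.24 was between 1.76 and 39.3. miR-27b had 7 normalized counts, from 1.58 counts before scaling. It was not above the highest of the low control rows in this sample or in wild type, so that no fold is given.

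**Figure D2:**
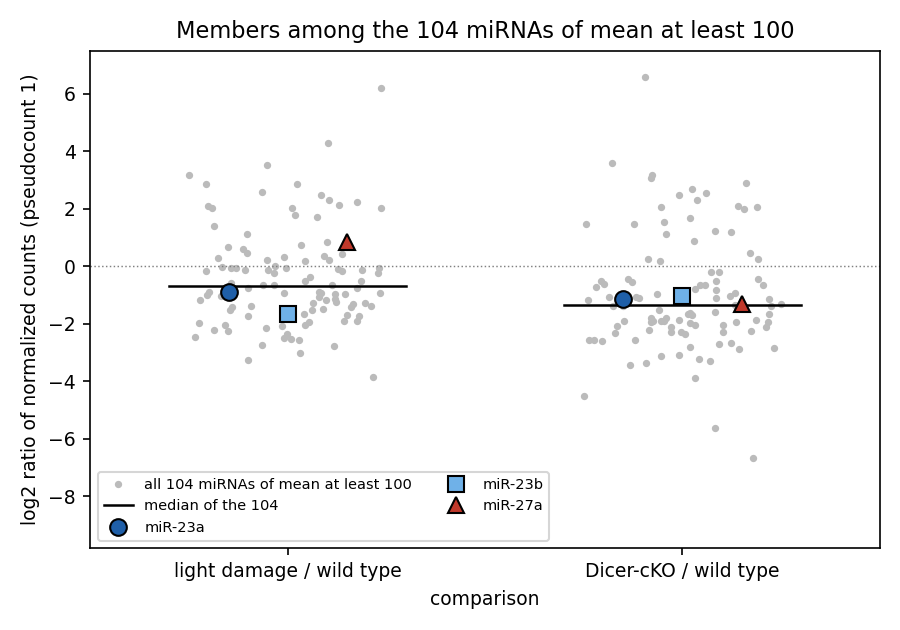
Log2 ratios of normalized counts to wild type (pseudocount 1) for the 104 miRNAs of mean 100 or more (grey), their median (black line) and the 3 members among them. After LD the members spread from -1.66 for miR-23b to 0.85 for miR-27a, and in Dicer-cKO MG they lie between -1.30 and -1.03, near the median of -1.36.

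The LD and Dicer-cKO samples were also compared with each other. miR-27a had a ratio of LD to Dicer-cKO of 4.46 (3.60 to 5.54), and 13 of the 104 miRNAs, miR-27a included, had a ratio at least as high. For miR-23a the ratio was 1.19 (1.04 to 1.35), and for miR-23b it was 0.643 (0.454 to 0.894). Over the 104 miRNAs 75 were higher after LD than in Dicer-cKO and 29 were lower, with a median log2 ratio of 0.73, and relative to it miR-27a was at 1.42, miR-23a at -0.49 and miR-23b at -1.37. Both miR-23 paralogs thus lay below the median of the panel, and miR-23b was the only member of the 3 that was lower after LD than in Dicer-cKO in the authors' scaling. With Gapdh as the only reference both paralogs were above 1, at 1.94 for miR-23a and 1.05 for miR-23b, and with an equal miRNA total both were below 1, at 0.495 and 0.268. The ratio of miR-27a was above 1 under all 10 other scalings, between 1.86 and 30.5. miR-24 had 38 normalized counts after LD and was at the lowest value in Dicer-cKO. Both comparisons with wild type share the wild type sample. Of the 104 miRNAs, 13 were higher after LD and lower in Dicer-cKO MG, miR-27a among them, and 66 were lower in both, miR-23a and miR-23b among them.

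The ratio of a pair of members within a sample does not depend on how the samples were scaled. Those of miR-27a to miR-23a and to miR-23b were chosen after the values had been seen. The ratio of miR-27a to miR-23a, the neighbours on chromosome 8, was 0.314 in wild type (0.292 to 0.339), 1.05 in the LD sample (0.957 to 1.15) and 0.279 in Dicer-cKO (0.221 to 0.352). The LD sample was the highest by 3.34-fold over wild type (2.96 to 3.77) and by 3.76-fold over Dicer-cKO (2.93 to 4.85), while Dicer-cKO and wild type could not be told apart (ratio 0.888, 0.694 to 1.13). The ratio of miR-27a to miR-23b was 1.85 in wild type (1.66 to 2.07), 10.6 in the LD sample (8.55 to 13.4) and 1.53 in Dicer-cKO (1.10 to 2.13). The LD value was 5.72-fold that of wild type (4.48 to 7.44). The ratio between members was therefore higher after LD, by more than counting error, when miR-27a was set against either miR-23 paralog. In wild type, the only sample in which miR-24 was above the highest of the low control rows, miR-23a and miR-23b together were 40.5 times miR-24 (32.7 to 51.1), and miR-27a and miR-27b together 11.1 times (8.92 to 14.2). Ratios to miR-24 are not compared between samples, because it was not above that row after LD or in Dicer-cKO.

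The paralogs of miR-23 also moved unequally after LD. The ratio of miR-23a to miR-23b was 5.89 in wild type (5.35 to 6.50), 10.1 in the LD sample (8.13 to 12.8) and 5.47 in Dicer-cKO (4.15 to 7.24). Relative to wild type it was 1.71-fold after LD (1.35 to 2.21) and 0.929-fold in Dicer-cKO (0.692 to 1.25). As a share of the 2, miR-23a made up 85.5% (84.3 to 86.7) in wild type, 91.0% (89.0 to 92.7) after LD and 84.5% (80.6 to 87.9) in Dicer-cKO. The chromosome 8 form thus held most of the miR-23 counts in every sample, and more of them after LD. The share of miR-27a in the counts of miR-27a and miR-27b was 97.8% in wild type, 99.0% after LD and 98.4% in Dicer-cKO, with miR-27b below the highest of the low control rows.

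**Figure D3:**
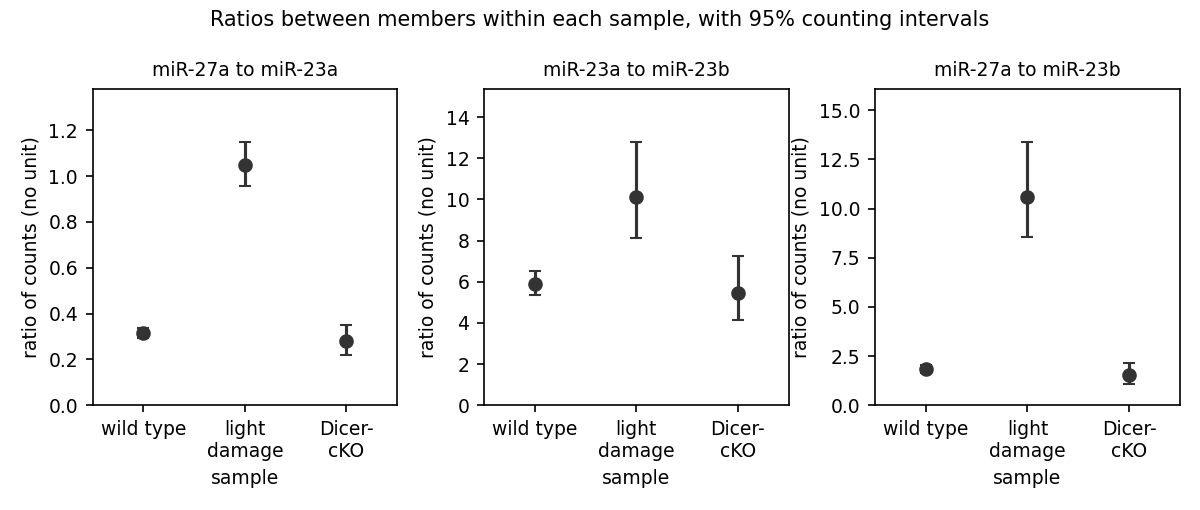
Ratios of counts between members within each of the 3 samples, with exact 95% counting intervals; the left panel sets miR-27a against miR-23a, the middle miR-23a against miR-23b and the right miR-27a against miR-23b. In each panel the LD sample is the highest (1.05, 10.1 and 10.6), and the wild type and Dicer-cKO intervals overlap.

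Summed over the 5 members, the clusters reached 5058 normalized counts in wild type, 3917 in the LD sample and 2226 in Dicer-cKO. In the authors' scaling the sum was lower by 22.6% after LD (18.3 to 26.7) and by 56.0% in Dicer-cKO (51.7 to 59.9), but it was higher than in wild type under 6 of 10 other scalings after LD and under 3 of the 10 in Dicer-cKO. For miR-23a and miR-27a its make-up was much alike in wild type and Dicer-cKO, with 65.8% and 68.1% miR-23a and 20.7% and 19.0% miR-27a. miR-24 made up 1.90% in wild type and was at the lowest value of the sample in Dicer-cKO. After LD miR-23a made up 45.9% and miR-27a 48.1%. Of all miRNA counts before scaling, the 5 members made up 0.646% (0.627 to 0.665) in wild type, 0.837% (0.800 to 0.875) after LD and 1.14% (1.05 to 1.25) in Dicer-cKO. As a sum, these members therefore took a larger share of a smaller total in both conditions. After LD this came with miR-27a, at 0.403% compared with 0.134% in wild type. The share of miR-23b was lower after LD (0.0379% compared with 0.0721%). That of miR-23a was 0.384% (0.359 to 0.410) compared with 0.425% (0.409 to 0.440), with intervals that just overlapped. miR-24 had 0.00827% compared with 0.0122%. No direction is read from it, since after LD it was not above the highest of the low control rows. The highest miRNA of the LD sample made up 36.9% of its miRNA counts. With the total taken without that miRNA, miR-23a was 38.7% higher than in wild type and miR-23b 19.0% lower.

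The miRNAs with the most similar pattern were sought among the 104 by the Euclidean distance over the 2 log2 ratios to wild type, which rests on 3 samples. The nearest to miR-23a was MIMAT0000533 at a distance of 0.15, with normalized counts of 194 (wild type), 115 (LD) and 91 (Dicer-cKO). miR-23b was nearest to MIMAT0000674, also at 0.15, with 528, 184 and 250. For miR-27a the nearest were MIMAT0000582 at 0.43, with 608, 964 and 321, and MIMAT0000526 at 0.51, with 504, 640 and 193. miR-27a thus had no neighbour as close as those of the miR-23 members. From miR-23a, miR-23b was at 0.78, the 15th in that order, and miR-27a at 1.75, the 54th.

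Except for miR-23b after LD, the direction of the changes of miR-23a, miR-23b and miR-27a against wild type depended on the reference used for scaling. miR-23b was lower after LD under all 10 other scalings, by 19.0% to 84.2%. miR-23a was lower after LD under 8 of the 10 and higher with Gapdh as the only reference (13.6%) and with the same miRNA total without the highest miRNA of the LD sample (38.7%). miR-27a was higher after LD under 9 of the 10, by 5.42% with Rpl19 as the only reference and by up to 363%, and lower by 9.65% when the 6 highest ERCC rows served as the reference. The declines in Dicer-cKO MG turned into increases for all 3 members under scaling to an equal miRNA total, of 82.5% for miR-23a, 96.4% for miR-23b and 62.0% for miR-27a. The housekeeping mRNAs moved apart after LD, since the normalized count of Rpl19 was 1.71 times and that of Gapdh 0.475 times that in wild type. Which reference fits these samples was not tested. The order of the members, with miR-27a above miR-23a and miR-23a above miR-23b in the ratio of LD to wild type, is the same under every such scaling by construction.

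**Figure D4:**
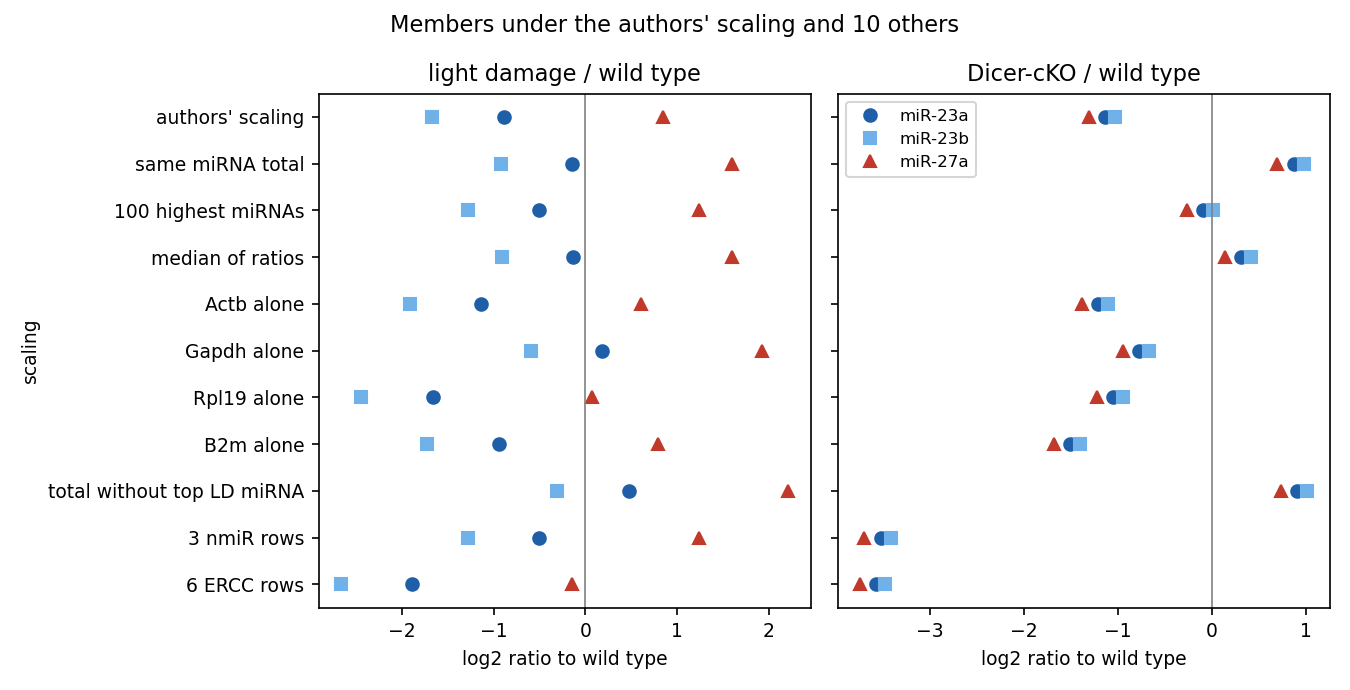
Log2 ratios to wild type (horizontal axis) of miR-23a, miR-23b and miR-27a for LD (left) and Dicer-cKO (right) under the authors' scaling and 10 others (rows). The distance between members is the same in every row, while the whole group shifts, and after LD miR-27a is left of 0 in the row of the ERCC rows only.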

How the data were processed

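The authors deposited 1 table of 626 rows in 3 columns, whose values are a signal: counts of molecules that nSolver 4.0 had normalized against 4 housekeeping mRNAs, 8 negative controls and 6 positive controls. Of the rows, 602 are miRNAs, 4 housekeeping mRNAs, 14 ERCC rows and 6 rows named nmiR. The sorts were pooled before RNA purification (200 ng of total RNA per sample), and no aligner or genome is involved. Scaling factors were found from the step sizes of housekeeping and nmiR values, and the normalized values were divided by them. All miRNAs above the lowest value (342 in wild type, 246 after LD, 243 in Dicer-cKO) then lay within 0.51 normalized counts of a whole count plus the decimals left by the background subtraction. In wild type, where the factor is 1.155, most values would meet this tolerance. Counts were rounded to whole numbers for intervals, and values at the lowest of a sample were taken as 0. How large that background was is not known. Intervals of changes between ratios are exact conditional intervals of an odds ratio. The intervals of ratios between samples were tested on simulated counts without background subtraction, and the recovery of the scaling factors on values built with known factors. The other computations, among them the intervals of changes between ratios, were not tested in this way.

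Ratios carry no pseudocount and log2 ratios a pseudocount of 1. A miRNA counts as lower or higher past 2-fold among those with a mean of at least 100. The named miRNAs were the 5 members and, of the 2 nearest to each, those printed; the others are left out because at most 2 identifiers that are higher and 2 that are lower are given. The planned lists of cell type miRNAs, other hairpin arms and seed-sharing miRNAs have no values here, since the table holds identifiers without names. Members and lists were chosen with earlier results of these data known. Sequences and positions are RefSeq's for GRCm38.p6, and symbols of the housekeeping mRNAs were matched by unversioned accession, 4 of 4. Alternatives were 10 scalings, a subtraction of the 10th percentile, a fold of 1.5 and other minimum levels. Computations used scipy 1.17.1 with pandas 2.3.3 and numpy 2.4.6 in Python 3.11.15, and plots matplotlib 3.10.9.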

Additional observations from a re-analysis of the deposited data

How the results depend on the processing

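No paired analysis was possible because there is only 1 pool per condition, so that no sample could be left out either. Each other scaling multiplies all ratios to wild type by the same number, and for each change below the cause was not tested. For LD and Dicer-cKO, respectively, the multiplier was 1.67 and 4.01 with the same miRNA total, 1.31 and 2.06 with the 100 highest miRNAs, 1.69 and 2.72 with the median of ratios, 0.845 and 0.951 with Actb, 2.10 and 1.28 with Gapdh, 0.585 and 1.06 with Rpl19, 0.962 and 0.773 with B2m, 2.57 and 4.12 with the total without the highest LD miRNA, 1.31 and 0.191 with 3 nmiR rows and 0.501 and 0.184 with 6 ERCC rows.

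After LD the changes of opposite sign were 13.6% (Gapdh) and 38.7% (total without the highest LD miRNA) for miR-23a, -9.65% (ERCC rows) for miR-27a and 1.72% (total without the highest LD miRNA) for miR-24, which after LD was not above the highest low control row. miR-27b was not above the highest low control row in any sample, so that no direction is read from it. Its values were above wild type under 6 of the 10 scalings after LD and under 2 in Dicer-cKO (either total). The sum of the 5 members, whose scalings were added after the values were seen, was higher after LD by 29.6% (same total), 1.33% (100 highest), 30.7% (median of ratios), 62.9% (Gapdh), 99.0% (total without the highest LD miRNA) and 1.25% (nmiR rows), and in Dicer-cKO by 76.3%, 19.6% and 81.1% with the same total, the median of ratios and the total without the highest LD miRNA. In Dicer-cKO they were 82.5%, 96.4% and 62.0% for miR-23a, miR-23b and miR-27a with the same total, 23.7%, 33.2% and 9.86% with the median of ratios, 87.4%, 102% and 66.4% with the total without the highest LD miRNA, and 0.804% for miR-23b with the 100 highest miRNAs. The ratio of LD to Dicer-cKO turned below 1 for miR-23a, to 0.495 (same total), 0.754 (100 highest), 0.736 (median of ratios), 0.655 (Rpl19) and 0.740 (total without the highest LD miRNA), and above 1 for miR-23b, to 1.05 (Gapdh), 4.40 (nmiR rows) and 1.75 (ERCC rows). For miR-27a it stayed above 1, between 1.86 and 30.5. The 7.24 given above for miR-24 in Dicer-cKO ranged from 1.76 to 39.3 under the other scalings. It is not a bound of the fold, because miR-24 was not above the highest low control row in Dicer-cKO.

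After LD 1 of the 3 members was lower by at least 2-fold in the authors' scaling, as were 39.4% of the 104 miRNAs of mean at least 100. That number of members was 0 with either total, the median of ratios or Gapdh, and 2 with Actb, Rpl19 or the ERCC rows and at a fold of 1.5. Simply lower after LD were 2 of the 3 members and 73 of the 104. This number of members was 1 with Gapdh or the total without the highest LD miRNA and 3 with the ERCC rows. In Dicer-cKO, 3 members were lower, as were 79 of the 104 miRNAs of mean at least 100, and 0 were with either total or the median of ratios and 2 with the 100 highest miRNAs. The 3 that were lower by at least 2-fold, as were 60.6% of the 104, became 0 under these scalings and with the 100 highest miRNAs or Gapdh, and 2 with Rpl19. The shares of the 104 under the other scalings and the fold of 1.5 are not given, so that these numbers say nothing particular to the members. In Dicer-cKO the share lower by at least 2-fold, 60.6% of the 104, was 78.4% at a mean of at least 1000. It was 47.3% among miRNAs above the lowest value in all samples. The share higher by at least 2-fold, 19.2% of the 104, was 5.41% at a mean of at least 1000. The 10th percentile was the lowest value of each sample, which 260 of the 602 miRNAs held in wild type, 356 after LD and 359 in Dicer-cKO. Subtracting it left every ratio within its counting interval. So small a value could hardly move the members with high counts, so that nothing is concluded from this. miR-27b was not above the highest low control row in any sample, nor was miR-24 after LD or in Dicer-cKO. Low counts also widened the interval of miR-23b in the Dicer-cKO sample.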
